A study of Mus musculus with 6 samples.

Results

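Genes of cell-cell junctions were compared between mouse aortic vascular smooth muscle cells given an siRNA, a short RNA that silences its target, for Sirt6 (siSirt6, 3 libraries) and control cultures (Control, 3 libraries), all taken after 48 h. The set holds every gene in the deposited tables whose symbol names a cadherin, protocadherin, Fat or Dachsous gene, claudin, occludin, connexin, tight junction or desmosomal plaque protein, nectin, or junctional immunoglobulin-type receptor, apart from the endothelial genes Cdh5 and Cldn5. These were 47 of the 7384 genes listed. Sirt6 is a sirtuin, an enzyme that removes acyl groups from histones and other proteins using NAD. The cells were grown out from mouse aorta, and no genetic alteration or further agent is named for either group. Strain, age, sex, the number of animals and the kind of control siRNA, if any, are not stated in the labels. Nothing in the labels says whether the 3 libraries of a group came from separate cultures, so p-values measure only the spread between these libraries, which may be technical.

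Cells of the artery wall hold together through several kinds of contact. Classical cadherins bind each other across the gap between cells through calcium-dependent repeats, and their tails bind beta-catenin, which links them by way of alpha-catenin and vinculin to actin. Protocadherins and the giant Fat, Dachsous and Celsr cadherins fall outside the classical group and act in recognition, planar polarity and growth control. Nectins are calcium-independent immunoglobulin-type receptors that bind afadin. Claudins and occludin form the strands of tight junctions, which the zonula occludens scaffolds (Tjp genes) anchor. Connexins assemble into gap junction channels that pass ions and small molecules, and in arteries they couple smooth muscle cells electrically. N-cadherin (Cdh2) is the main classical cadherin, and connexin 43 (Gja1) a main connexin, of cultured smooth muscle.

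The listed genes took between 14458847 and 15526399 reads per library, as recovered from the values. The upper figure is from siSirt6 replicate 1, whose recovered reads were left out of the tests on reads described below. Values are normalised read counts, meaning whole reads over a factor set for each library. Sirt6 itself had values of 251.7, 257.0 and 270.4 under Control and 44.5, 59.8 and 63.5 under siSirt6, a log2 change of -2.21 (SE 0.141, adjusted p = 1.16e-15). Acta2, the defining smooth muscle actin, lay between 58174 and 58375 in the Control libraries and between 96394 and 97231 in the siSirt6 libraries, and 10 of 12 smooth muscle markers were in the tables. Of these 10, 8 rose in siSirt6 and 2, Smtn and Mylk, fell (ratios 0.813 and 0.8035). Several lay far below Acta2 in the Control libraries. Tagln lay between 148 and 212.5, Cnn1 between 404.9 and 445.2, Mylk between 518.1 and 523.5, and Myh11 between 577.6 and 610.5. Of 10 adventitial fibroblast markers, 4 rose and 6 fell in siSirt6. Their summed level lay between 103011 and 103666 in the Control libraries and between 88149 and 89618 in the siSirt6 libraries. Most of that sum came from Gsn, which smooth muscle also expresses. Gsn alone lay between 71593 and 72635 in the Control libraries and between 56962 and 58095 in the siSirt6 libraries. In bulk libraries, fewer cells of a type and less RNA per cell cannot be told apart.

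Of the 47 junction genes, 44 had 10 or more in 3 or more libraries and were tested with limma. Of these 44, 17 rose and 27 fell in siSirt6 (adjusted p under 0.05). The tables list almost only genes that differ: 99.8% of the 7179 genes tested passed the same test, 50.5% higher and 49.3% lower, so that passing says little about a junction gene and its direction and size carry the description. The groups did not overlap for any of the 44, as for 96.8% of all genes tested. Members of these families outside the tables were not analysed here. The median log2 fold change, on the log2(value + 1) scale, was -0.38 over the 44 and 0.08 over all genes tested. Over the 41 junction genes with 10 or more in all 6 libraries it was -0.26. In summed normalised read counts, the 47 genes went from 41584 ± 448.5 to 40159 ± 308.4 (SD, n = 3).

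The sum hid a split between families. All 7 nectin and immunoglobulin-type genes rose, while all 4 junction scaffold genes, 11 of 12 protocadherins and 3 of 4 tested Fat and Dachsous genes fell. With the trend on transcript length and GC removed, all 7 nectin-type genes were still higher, while 2 of the 4 scaffolds and 8 of the 12 protocadherins were lower and the 4 Fat and Dachsous genes divided into 2 higher and 2 lower. Cadherins, claudins and connexins went both ways. Group means differed at least 1.5-fold for 22 of the 44 genes, against 23.3% of all genes tested, and at least 2-fold for 11, against 7.98%. Level bears on that comparison. Among genes with a Control mean under 100, 13 of 15 junction genes passed 1.5-fold, against 87.2% of all such genes, and at a Control mean of 100 or more 9 of 29 did, against 14.9%. Of the junction genes past 2-fold, only Fat4, Cldn1 and Cadm4 had a Control mean of 100 or more. The share of all genes past 2-fold was not taken by level. Dchs2, Pcdh12 and Pcdhac2 were tested because their Control values were high enough, not their siSirt6 values, so a difference was built into their selection. They are among the falls counted above for protocadherins and for Fat and Dachsous genes, with the trend or without it. They are also among the 13 genes past 1.5-fold at a Control mean under 100. Without them 17 of 41 rose and 24 fell, 19 differed at least 1.5-fold and 8 at least 2-fold.

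**Figure D1:**
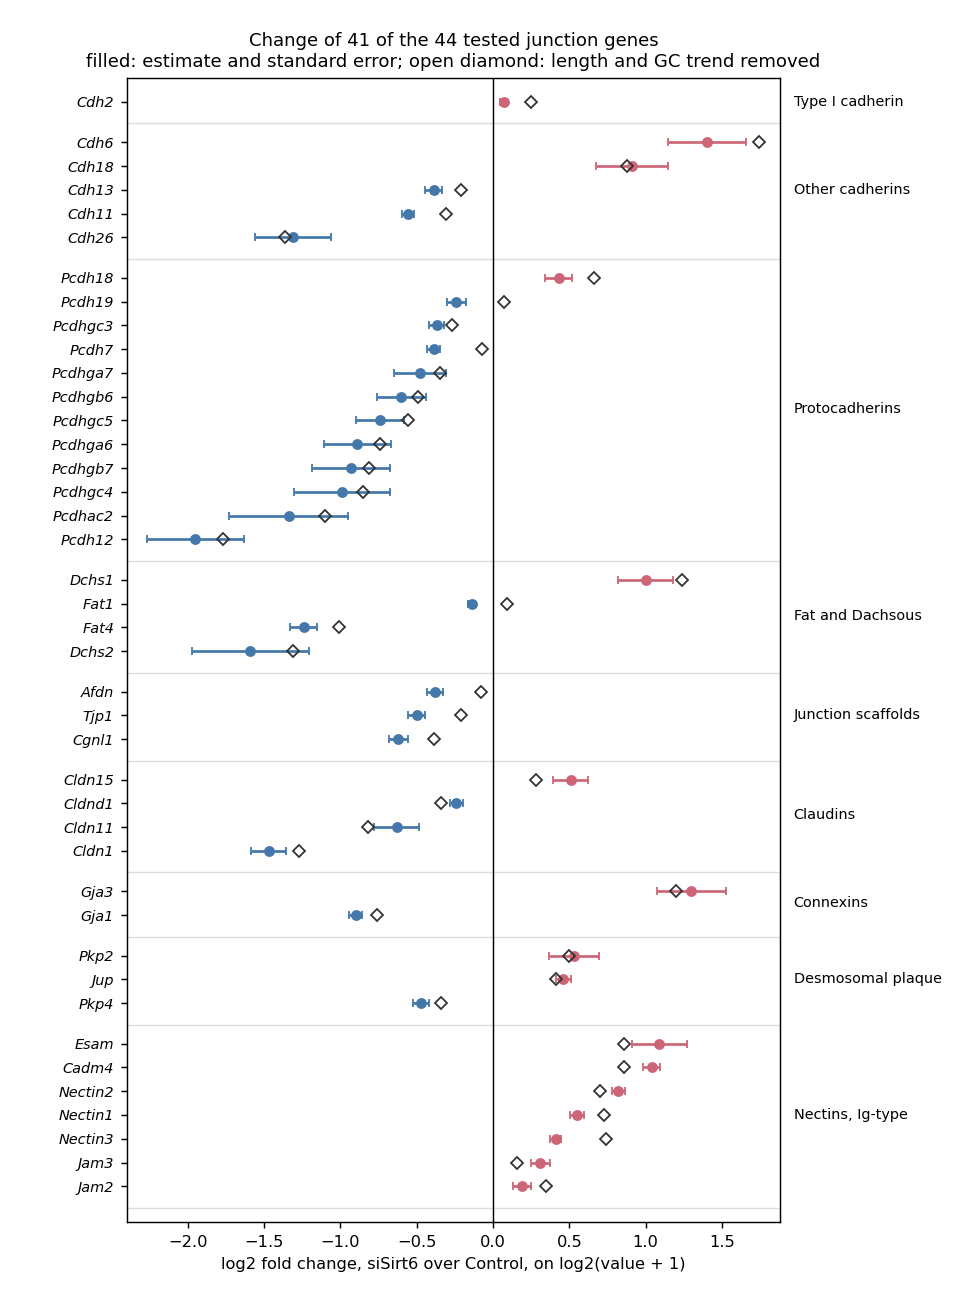
Log2 fold change of 41 of the 44 tested junction genes (horizontal axis, siSirt6 over Control on log2(value + 1)), grouped by family; filled points with bars are the estimate and its standard error, and open diamonds the estimate without the length and GC trend. The nectin and immunoglobulin-type genes all lie to the right of 0 and the junction scaffolds shown all to the left, and Fat1 and Pcdh19 cross 0 when the trend is removed.

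Transcript length moved with the direction. The longest annotated transcript had a median of 2931 nt over the 17 genes that rose, 4920 nt over the 27 that fell and 3383 nt over all genes tested. Once the trend on length and GC content was taken out, 18 of the 44 were higher (37.3% of all genes with a length were), 21 lower (36.8% of all) and 5 gave no call, and the median went from -0.38 to -0.16. Over the 41 genes with 10 or more in all 6 libraries, 18 were then higher and 18 lower, and the median was -0.08. Afdn, Pcdh7, Pcdh19 and Pcdhga7 were among the 5 without a call. Fat1 turned from lower to higher. When all 55536 annotated genes entered the adjustment, 41 of the 44 kept a call, against 90.3% of all genes tested; Cdh2, Jam2 and Pcdhga7 did not. Scaling each library to its total over the listed genes shifted the median gene by -0.119 and left 15 junction genes higher and 28 lower.

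**Figure D2:**
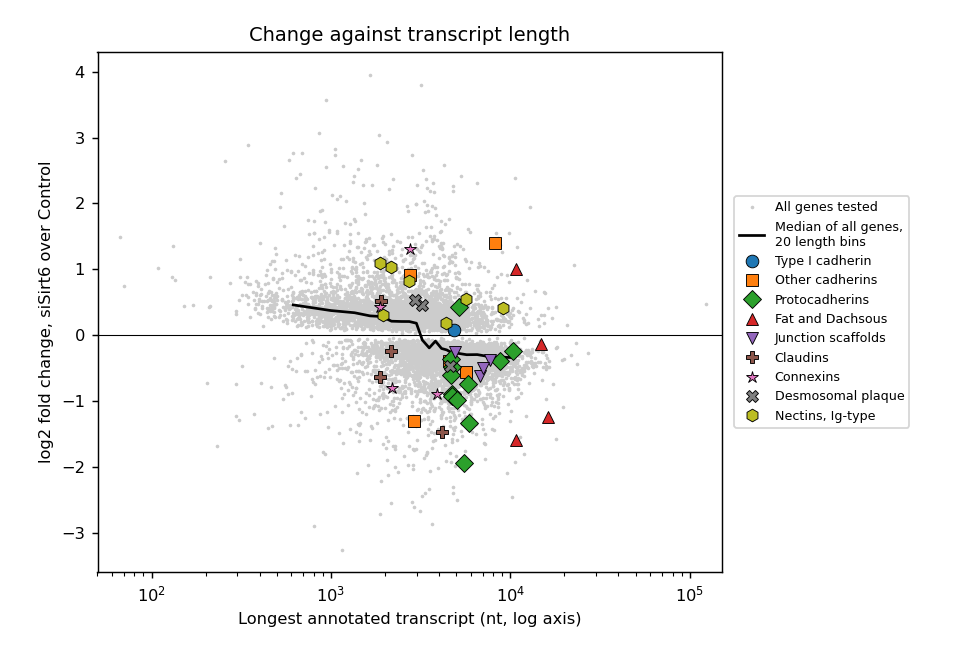
Log2 fold change (vertical axis, siSirt6 over Control) against the longest annotated transcript of each gene (horizontal axis, nt, log scale); grey points are all genes tested, the line their median in bins of equal gene number, and large symbols the junction genes by family. The line falls from above 0 for short transcripts to below 0 for long ones, and 10 of 12 protocadherins lie below it while all 7 nectin and immunoglobulin-type genes lie above it. Pcdh12 and Pcdhac2, among those 10, were tested through their Control values only.

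Among the cadherins, N-cadherin was by far the most abundant and changed by little, in a direction that depended on the scaling, while the mesenchymal cadherin-11 fell. Cdh2, on chromosome 18 from 16588877 to 16809246 (GRCm38), stood at 6568, 6593 and 6723 in Control and 6977, 6911 and 6938 in siSirt6 libraries. Per kilobase of transcript its Control level was 1369, above 88.6% of the genes listed. The siSirt6 libraries were all higher, but by a ratio of 1.05 (log2 0.07 ± 0.023 SE, adjusted p = 0.00763). That call was not kept with p adjusted over all annotated genes (adjusted p = 0.059), with edgeR (0.04, adjusted p = 0.12) or with DESeq2 (0.04, adjusted p = 0.216), and under scaling to listed totals the sign turned (-0.05, adjusted p = 0.0348). With the length and GC trend removed the rise was larger (0.25, adjusted p = 4.51e-12).

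Cdh11, on chromosome 8 from 102632095 to 102785642, is a type II classical cadherin of mesenchymal cells. Its values were 2395, 2369 and 2571 under Control and 1646, 1578 and 1735 under siSirt6. Every siSirt6 library lay below every Control library, with a ratio of 0.676 (log2 -0.56 ± 0.039 SE, adjusted p = 1.63e-14); with the length trend removed the fall was -0.31. T-cadherin Cdh13, which is held to the membrane by a lipid anchor and has no cytoplasmic tail, fell to 0.761, from 935 ± 46.8 to 711.6 ± 34.3 (SD, n = 3), a log2 change of -0.39 that was -0.21 with the trend removed.

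The other cadherins were scarce. Cdh6, a type II cadherin known from kidney development, stood at 28.3, 16.6 and 42.5 in Control and 85.0, 74.2 and 62.4 in siSirt6 libraries. It rose 2.54-fold (log2 1.40 ± 0.256 SE, adjusted p = 2.12e-05), with a spread in the Control libraries that was wide for its level. Cdh18, a cadherin described mainly in brain, went from 33.2, 22.4 and 36.7 to 74.2, 48.5 and 53.1, a 1.90-fold rise (adjusted p = 6.47e-04; 0.0627 with DESeq2 on 5 libraries). Cdh26 went the other way, from 54.6, 56.5 and 78.2 to 15.8, 28.9 and 32.3, and fell to 0.406 of its Control level (adjusted p = 2.03e-05). For Cdh6, Cdh18 and Cdh26 the groups did not overlap.

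Protocadherins fell, with 1 exception. The gamma cluster on chromosome 18, in which many variable first exons are each spliced to the same constant exons, had 7 members in the tables, and all 7 fell. Pcdhgc3 was the most abundant, at 1183, 1164 and 1252 under Control and 946.3, 914.4 and 914.8 under siSirt6, and fell to 0.771 (log2 -0.37 ± 0.047 SE, adjusted p = 1.46e-08). Pcdhgc5 stood at 112.2, 117.8 and 97.5 in Control and 62.3, 70.1 and 62.4 in siSirt6 libraries, and fell to 0.595. Both genes encode C-type isoforms, which are kept apart from the stochastically chosen A and B isoforms.

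Of the A- and B-type members, Pcdhga6 went from 54.6, 52.6 and 56.0 in the Control libraries to 30.7, 26.8 and 29.1 in the siSirt6 libraries, a fall to 0.53 (adjusted p = 4.08e-04). Pcdhgb7 went from 40.0, 50.6 and 45.4 to 18.8, 20.6 and 32.3, a fall to 0.527 (adjusted p = 0.00121). Both kept the libraries of the groups apart. Pcdhgb6 went from 102.5, 117.8 and 96.6 to 72.2, 59.8 and 76.0, a fall to 0.656 (adjusted p = 8.66e-04). The C-type Pcdhgc4 had the lowest Control mean of the 7, 32.4, and stood at 18.5, 43.8 and 34.8 under Control and 15.8, 13.4 and 15.6 under siSirt6 (ratio 0.462, adjusted p = 0.00432); without Control replicate 2 its adjusted p was 0.0552. Pcdhga7 fell to 0.707, from 93.5 ± 18.8 to 66.2 ± 6.98 (adjusted p = 0.00899), and this call was lost without Control replicate 3 (log2 -0.33, adjusted p = 0.0971), with the length trend removed (-0.35, adjusted p = 0.0625) and over all annotated genes (adjusted p = 0.0695).

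These 7 genes are not independent measurements. Their annotated exons share 2119 bases, between 27.8% and 45.2% of each gene's exon length, and the sources used here do not say how reads on the shared exons were counted. The alpha cluster gave 1 member, Pcdhac2, whose exons share 2860 bases with the rest of that cluster. It was at 18.5, 38.0 and 14.5 in Control and 5.9, 8.2 and 10.4 in siSirt6 libraries, a ratio of 0.346. That ratio is a description only, because Pcdhac2 was tested through its Control values. Annotated exons on the opposite strand overlap 12 of the 47 genes, and the sources used here do not give the strand setting of the counting. The overlap took 10% or more of the exon bases of Jam3 (36.2%), Pcdhgc3 (28.4%), Pcdh7 (21.1%), Pcdhgb7 (16.4%), Dchs2 (1299 bases) and Pcdhga7 (10.3%), and the partners of Pcdhgc3 (BC037039) and Dchs2 (Gm10710) are themselves in the tables.

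Non-clustered protocadherins were mixed in size. Pcdh12, a protocadherin known from endothelium, went from 47.8, 38.9 and 38.6 in the Control libraries to 5.9, 14.4 and 11.4 in the siSirt6 libraries, a ratio of 0.254, which is a description only because the gene was tested through its Control values. The 12 listed endothelial markers were higher in the same siSirt6 libraries. Pcdh7 fell to 0.765, from 1545 ± 30.2 to 1182 ± 41.0 (SD, n = 3), and X-linked Pcdh19 to 0.851, from 988 ± 22.3 to 841.1 ± 94.3; neither kept a call with the length trend removed (-0.07, adjusted p = 0.152, and 0.07, adjusted p = 0.282). Pcdh18 was the exception that rose, 1.34-fold from 261.2 ± 24.6 to 350.6 ± 15.5 (log2 0.43, adjusted p = 5.59e-05; 0.66 with the trend removed).

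Of the giant cadherins, Fat4 fell steeply, its partner Dchs1 rose and Fat1 stayed close to its Control level. Fat4 and Dachsous 1 are a receptor and ligand pair in planar polarity. Fat4, on chromosome 3 from 38886940 to 39011985, stood at 459.6, 519.9 and 472.3 under Control and 184.9, 205.1 and 223.7 under siSirt6. Its highest siSirt6 value was below 0.5 of its lowest Control value, and it fell to 0.423 (log2 -1.24 ± 0.088 SE, adjusted p = 2.02e-14; -1.01 with the length trend removed). Dchs1 went from 59.5, 61.3 and 38.6 to 92.9, 114.4 and 110.3, a 1.99-fold rise (log2 1.00 ± 0.182 SE, adjusted p = 8.44e-06). Ligand and receptor moved in opposite directions in the same libraries.

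Fat1, the most abundant of the family, is expressed in vascular smooth muscle after injury. Its values were 8050, 8018 and 8415 in Control and 7456, 7431 and 7295 in siSirt6 libraries. The fall to 0.906 (log2 -0.14 ± 0.024 SE, adjusted p = 2.25e-06) turned into a rise with the length and GC trend removed (0.09, adjusted p = 9.54e-04). Dchs2 was scarce, at 26.3, 39.9 and 32.8 under Control and 17.8, 4.1 and 13.5 under siSirt6 (ratio 0.358). That ratio is a description only, because Dchs2 was tested through its Control values. Fat2 did not reach the filter and ranged from 2.9 to 5.8 in the Control libraries and from 0 to 1.0 in the siSirt6 libraries.

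Junction scaffolds all fell. Cgnl1 encodes paracingulin, which ties junctions to regulators of small GTPases. It stood at 873.3, 971.7 and 820.9 in Control and 532.0, 613.4 and 590.1 in siSirt6 libraries, and fell to 0.651 (log2 -0.62 ± 0.064 SE, adjusted p = 5.09e-10). Tjp1, which encodes ZO-1, fell to 0.706, from 867.1 ± 44.3 to 612.1 ± 21.1 (SD, n = 3). Afdn, which encodes the nectin-binding protein afadin, fell to 0.77, from 913 ± 24.3 to 703.4 ± 39.6. The scaffold transcripts are long, with a median of 6901 nt. With the length trend removed Cgnl1 (-0.39) and Tjp1 (-0.21) kept their calls while Afdn (-0.08, adjusted p = 0.174) did not.

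Claudin-1 had the steepest fall, as a ratio, among the claudin genes tested. Cldn1, on chromosome 16 from 26356642 to 26371841, went from 281.0, 352.5 and 314.8 in the Control libraries to 119.6, 120.6 and 99.9 in the siSirt6 libraries. No siSirt6 value came near a Control value, and the gene fell to 0.359 (log2 -1.47 ± 0.113 SE, adjusted p = 1.77e-13; -1.27 with the length trend removed). Cldn11, a claudin known from myelin and the testis barrier, went from 181.5, 151.9 and 151.6 to 92.9, 138.1 and 87.4, a fall to 0.657 (adjusted p = 3.24e-04). The second siSirt6 library lay much nearer the Control range than the other siSirt6 libraries.

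Cldn15, which forms cation-permeable pores in gut, rose 1.43-fold from 162.3 ± 14.3 to 232.3 ± 37.5 (SD, n = 3, log2 0.51, adjusted p = 1.80e-04; 0.28 with the trend removed). Cldnd1, a claudin-domain protein rather than a claudin proper, was the most abundant of the group, at 1490, 1518 and 1544 under Control and 1303, 1249 and 1303 under siSirt6, and fell to 0.847 (adjusted p = 3.73e-06). Ocln and Cldn7 were near 0. Occludin, Ocln, had 0 reads in each Control library, which allows up to 3 reads, and values between 2.1 and 4.0 in the siSirt6 libraries. Cldn7 was at 1.0 in each Control library and between 4.9 and 8.3 in the siSirt6 libraries. Neither was tested.

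Connexin 43, the most abundant connexin gene of the tables in the Control libraries, fell. Gja1, on chromosome 10 from 56377330 to 56402513, stood at 2216, 2166 and 2185 in Control and 1106, 1171 and 1247 in siSirt6 libraries. The siSirt6 libraries all lay far below, at a ratio of 0.537 (log2 -0.90 ± 0.042 SE, adjusted p = 1.98e-19; -0.76 with the length trend removed). Per kilobase of transcript, Gja1 went from 562.9 ± 6.45 to 302 ± 18.2 (SD, n = 3). Gja3, the lens connexin 46, was scarce and rose 2.52-fold, from 21.5, 29.2 and 23.2 to 69.2, 66.0 and 51.0 (adjusted p = 5.91e-06).

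Promoter windows of Gja1 and Cldn1, which fell in all siSirt6 libraries and were chosen after their values were seen, are shown to set them beside those of the rising nectin-type genes further on. Each runs from 250 bases before to 50 after the RefSeq start site (GRCm38.p6), 5′ to 3′ on the gene's strand. Capitals mark matches on either strand to any of 4 motifs: GGGCGG (the GC box of Sp1-type factors), CACCTG (the E-box of Snail and Zeb factors), TGANTCA (AP-1) and GGAATG (TEAD).
Gja1 (chr10:56377050-56377349, plus strand): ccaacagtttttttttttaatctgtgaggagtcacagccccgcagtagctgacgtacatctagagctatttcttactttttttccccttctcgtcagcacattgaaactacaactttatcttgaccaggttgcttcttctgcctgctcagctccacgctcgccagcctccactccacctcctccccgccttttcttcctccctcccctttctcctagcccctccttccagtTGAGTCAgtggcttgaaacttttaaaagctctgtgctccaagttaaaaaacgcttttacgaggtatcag
Cldn1 (chr16:26371790-26372089, minus strand): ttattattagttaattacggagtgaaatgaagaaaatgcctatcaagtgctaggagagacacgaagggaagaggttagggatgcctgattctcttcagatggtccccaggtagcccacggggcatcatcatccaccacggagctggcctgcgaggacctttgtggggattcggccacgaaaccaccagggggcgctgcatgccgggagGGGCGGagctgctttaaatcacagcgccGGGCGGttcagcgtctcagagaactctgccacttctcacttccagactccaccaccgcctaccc
The Gja1 window held 1 match, TGANTCA, and none to the GC box, with a GC content of 47.7%. The Cldn1 window held 2 GC boxes and none of the other motifs, with a GC content of 56.0%.

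The desmosomal plaque genes divided. Jup encodes plakoglobin, a relative of beta-catenin found in desmosomes and adherens junctions, and was at 764.0, 793.5 and 751.4 under Control and 1075, 1071 and 1029 under siSirt6. It rose 1.38-fold (log2 0.46 ± 0.050 SE, adjusted p = 6.67e-10). Pkp2, a plakophilin best known from heart muscle, rose 1.46-fold from 64.1 ± 3.84 to 93.3 ± 10.7 (SD, n = 3, adjusted p = 0.00345), while Pkp4, a p120-catenin relative at adherens junctions, fell to 0.721, from 950 ± 13.3 to 685.2 ± 12.8 (adjusted p = 9.07e-10). Genes of the desmosomal cadherins and desmoplakin were not analysed here.

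All the nectin and immunoglobulin-type adhesion genes rose, and as a family they went from a summed 8093 ± 80.6 to 11288 ± 353.8 (SD, n = 3). Nectin2, on chromosome 7 from 19716644 to 19750483, stood at 1100, 1066 and 1042 in Control and 1979, 1822 and 1848 in siSirt6 libraries. It rose 1.76-fold (log2 0.82 ± 0.043 SE, adjusted p = 5.25e-18). Nectin1, known as a partner of nectin-3 in contacts between unlike cells, rose 1.47-fold from 917.5 ± 24.4 to 1348 ± 65.3 (adjusted p = 2.07e-12). Nectin3 rose 1.33-fold from 1625 ± 35.1 to 2166 ± 52.4 (adjusted p = 5.90e-12). With the length trend removed the log2 fold changes of Nectin1, Nectin2 and Nectin3 were 0.73, 0.70 and 0.74. The nectins thus rose in the libraries in which their cytoplasmic partner gene Afdn fell, though that fall was not called with the trend removed.

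Cadm4, on chromosome 7 from 24482023 to 24504539, encodes a nectin-like adhesion molecule known from Schwann cells. It went from 844.0, 708.8 and 702.1 in the Control libraries to 1541, 1548 and 1532 in the siSirt6 libraries. The siSirt6 values lay within 1% of their mean, and the rise was 2.05-fold (log2 1.04 ± 0.056 SE, adjusted p = 1.81e-15; 0.86 with the length trend removed). Of 9 tested Schwann cell and neuron markers 5 rose and 4 fell, the Schwann cell markers Mbp and S100b among those that fell. The 10 listed markers summed to between 4287 and 4454 in the Control libraries and between 6529 and 6646 in the siSirt6 libraries, and their part in the rise of Cadm4 was not tested.

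Junctional adhesion molecules moved least. Jam2, the most abundant of the family per kilobase, was at 3155, 3105 and 3243 under Control and 3488, 3994 and 3357 under siSirt6. Its second siSirt6 library stood above the others, and the 1.14-fold rise (log2 0.19 ± 0.060 SE, adjusted p = 0.0148) was not called without Control replicate 1 (0.18, adjusted p = 0.058), under scaling to listed totals (0.07, adjusted p = 0.289) or over all annotated genes (adjusted p = 0.115). With the length and GC trend removed it was larger (0.35, adjusted p = 0.00104). Jam3 rose 1.24-fold from 518.3 ± 27.4 to 643.5 ± 13.5 (SD, n = 3, log2 0.31, adjusted p = 3.90e-05; 0.16 with the trend removed).

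Esam, an adhesion molecule of endothelial cells, went from 46.8, 47.7 and 36.7 in the Control libraries to 98.9, 93.8 and 88.5 in the siSirt6 libraries, a 2.14-fold rise (log2 1.09 ± 0.180 SE, adjusted p = 2.15e-06). Of 16 endothelial markers, 12 were in the tables, Esam itself among them, and all 12 rose. Their summed level, Esam included, lay between 2990 and 3235 in the Control libraries and between 4524 and 4685 in the siSirt6 libraries, and none was at 0 in all libraries. Cdh5 and Cldn5 rose 2.28-fold and 5.98-fold. The part of endothelial cells in the rise of Esam was not tested. For the epithelial claudin and occludin genes the corresponding markers were keratins and mesothelial genes: 7 of 19 were tested, 5 higher and 2 lower, with a summed level, Cldn7 included, between 2270 and 2343 in the Control libraries and between 2867 and 3070 in the siSirt6 libraries. Their part in the traces of Cldn7 and Ocln was not tested.

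**Figure D3:**
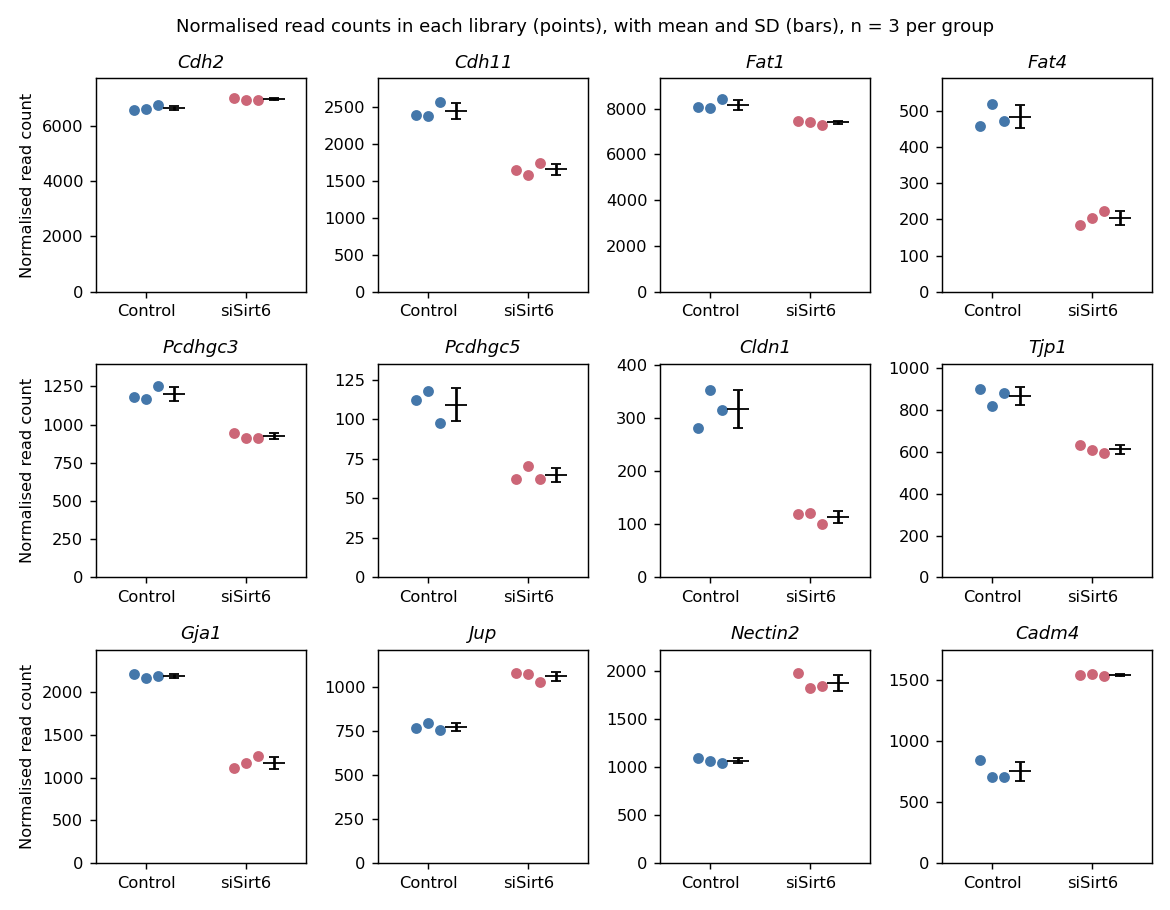
Normalised read count (vertical axis, from 0) of 12 junction genes in each of the 3 Control (blue) and 3 siSirt6 (red) libraries, with the mean and SD beside them. Gja1, Fat4, Cldn1 and Cdh11 show siSirt6 libraries well below Control, Nectin2 and Cadm4 well above, and Cdh2 and Fat1 values that differ by little.

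The promoter windows of Nectin2, Nectin3 and Cadm4 are shown because these genes rose together; capitals mark the same 4 motifs as for Gja1 and Cldn1.
Nectin2 (chr7:19749524-19749823, minus strand): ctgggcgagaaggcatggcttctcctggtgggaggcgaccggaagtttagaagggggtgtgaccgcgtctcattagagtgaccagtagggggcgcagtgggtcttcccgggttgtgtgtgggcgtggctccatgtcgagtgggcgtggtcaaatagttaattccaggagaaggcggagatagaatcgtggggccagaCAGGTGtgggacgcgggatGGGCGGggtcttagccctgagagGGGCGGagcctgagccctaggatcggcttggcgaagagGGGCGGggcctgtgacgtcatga
Nectin3 (chr16:46496918-46497217, minus strand): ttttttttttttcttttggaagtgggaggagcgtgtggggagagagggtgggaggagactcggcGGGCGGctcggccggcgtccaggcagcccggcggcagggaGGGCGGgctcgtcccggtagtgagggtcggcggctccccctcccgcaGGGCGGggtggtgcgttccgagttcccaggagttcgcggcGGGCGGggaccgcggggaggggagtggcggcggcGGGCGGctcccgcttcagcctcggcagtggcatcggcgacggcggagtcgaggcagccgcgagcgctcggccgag
Cadm4 (chr7:24481773-24482072, plus strand): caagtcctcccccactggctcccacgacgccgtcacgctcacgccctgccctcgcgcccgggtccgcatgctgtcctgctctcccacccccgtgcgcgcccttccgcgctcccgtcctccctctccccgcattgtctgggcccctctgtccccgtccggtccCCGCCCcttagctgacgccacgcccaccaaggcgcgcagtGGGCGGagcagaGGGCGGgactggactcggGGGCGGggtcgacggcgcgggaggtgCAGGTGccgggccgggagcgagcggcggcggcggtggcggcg
The GC box occurred 3 times in the Nectin2 window, 5 times in that of Nectin3 and 4 times in that of Cadm4, and the E-box once each in Nectin2 and Cadm4. Their GC contents were 62.7%, 73.7% and 77.0%. RefSeq windows were at hand for 26 of the 47 genes. GGGCGG was found in 17 of these 26, against 35.9% of 27025 mouse promoter windows of the same length. It was in 8 of 9 windows of genes that rose and 8 of 14 of genes that fell. The remaining windows belong to the untested Fat2, Cldn7 and Ocln. The 27025 windows include genes not expressed in these cells, and the share over the listed genes was not taken. The 2 shares thus do not set junction genes apart from other expressed genes. CACCTG was in 5 of 26 (5413 of all windows), TGANTCA in 2 (7.9% of all) and GGAATG in 5 (14.6% of all). A match is a run of letters and not a measured binding site.

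Genes that work with these junction proteins were described from lists chosen with earlier results of these data known. Of 25 adherens junction partner symbols, 14 were tested; 4 rose and 10 fell (median log2 -0.17); without the trend on length and GC, 5 were higher, 7 lower and 2 without a call. Vcl, which encodes vinculin, fell to 0.491, from 3293 ± 25.4 to 1616 ± 55.5 (SD, n = 3). Beta-catenin Ctnnb1 fell to 0.786, from 6842 ± 91.4 to 5375 ± 105, and the PDZ and LIM domain gene Pdlim7 rose 1.38-fold. Of 35 tight junction partner symbols, 14 were tested; 4 rose and 10 fell (median -0.22); with the trend removed, 3 were higher, 7 lower and 4 without a call (median -0.08). The angiomotin genes Amot and Amotl2, whose proteins bind YAP at junctions, fell to 0.393 and 0.758, and Ybx3, whose protein is held at tight junctions by ZO-1, rose 1.33-fold (log2 0.41; 0.16 with the trend removed).

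Of 17 gap junction partners, 7 were tested, 5 higher and 2 lower (median 0.37); with the trend removed 5 were higher, 1 lower and 1 without a call, and Mapk3 turned from 0.18 to -0.08. The named genes were Cav1, which encodes caveolin-1, up 1.45-fold and the tubulin genes Tuba1a and Tubb5 up 1.54-fold and 1.32-fold. Tuba1a went from log2 0.62 to 0.38 with the trend removed. Of 10 desmosome partners, Perp fell to 0.731 and vimentin, Vim, stood at a ratio of 1.03 (log2 0.04), which turned to -0.08 under scaling to listed totals; only these were tested. Among 18 cadherin regulators and sheddases, 6 of 13 tested rose and 7 fell (median -0.14). The cadherin sheddase Adam10 fell to 0.667, from 2278 ± 89.8 to 1521 ± 37.8 (SD, n = 3), a log2 change of -0.58 that was -0.37 with the trend removed, while the metalloprotease Mmp3 rose 1.53-fold and the gamma-secretase subunit Ncstn 1.43-fold.

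The list of planar polarity and Hippo pathway genes, through which Fat and Dachsous cadherins are known to act, had 16 of 29 tested, of which 1 rose and 15 fell (median -0.31). The Hippo scaffold Sav1 fell to 0.605, from 1452 ± 75.2 to 878.8 ± 74.9 (SD, n = 3), and the kinase cofactor Mob1a to 0.803 (log2 -0.32; -0.13 with the trend removed), while Nf2, which encodes merlin, rose 1.30-fold. With the length trend removed 4 of the 16 were higher, 8 lower and 4 without a call. No such list was tested as a whole.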

How the data were processed

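RNA was measured by sequencing in 6 libraries, 3 Control and 3 siSirt6. Trizol extraction and a stranded library kit for mRNA were used, per the labels' protocols. Trimmomatic, HISAT2, Cufflinks, HTSeq and the build mm10 are named per the submitters' processing notes, without versions, roles or order. The deposited values are a signal per gene: whole reads over a factor set for each library, between 0.9609 and 1.0354, as the steps between values show (100% of values whole within 0.01 reads plus rounding). The sources used here do not say how the authors set them. Total depth is unknown.

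The groups were compared on log2(value + 1) with limma 3.58.1 under R 4.3.3, 2-sided, using its trend and robust options, over the 7179 genes with at least 10 in at least 3 libraries, with Benjamini-Hochberg adjustment over all of them and a threshold of 0.05. The added 1 draws the log2 values of low genes together; folds are ratios of group means, and can differ from the mean difference of logs. The planned unit-dependent choice fell on limma because the values are not counts. Positions and lengths came from GENCODE vM21 (GRCm38), where all 47 genes were found; the length and GC trend was removed per library with splines. Per-kilobase levels use the longest transcript. EdgeR 4.0.16 and DESeq2 1.42.0 were run on recovered reads of 5 libraries; siSirt6 replicate 1, whose step of 0.9888 lies too near 1 for the recovery to be accepted, was left out there. EdgeR called 6925 and DESeq2 6238 of the 7179 genes. Replicates differed beyond sampling noise (chi-square per gene between 1.94 and 2.50 within groups), so none was counted once with another. The test was also run on simulated data in which few genes changed, unlike these data, so that run does not bear on the calls given here. Some genes that enter the counts are not reported here by name. Values in every library are otherwise given for genes past 1.5-fold and for the most abundant per kilobase of each family, and of each partner list the 3 genes with the smallest p are named; other named markers were chosen after their values were seen. The members and lists were chosen with earlier results of these data known.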

Additional observations from a re-analysis of the deposited data

How the results depend on the processing

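Counts of junction genes called stayed within 1.5 times of 17 higher and 27 lower under every alternative run: 16 to 17 and 26 to 27 without 1 library, 17 and 27 with pseudocounts of 0.5 and 5, 19 and 28 with no filter, 13 and 19 with a mean of 5 CPM or more (over listed reads), 16 and 27 with edgeR, 15 and 26 with DESeq2, 15 and 28 under listed totals, 18 and 21 without the length and GC trend, and 15 and 26 over all annotated genes. The median log2 fold change of -0.38 lay between -0.39 and -0.34 without 1 library. It moved to -0.25 with the CPM filter, which leaves 32 genes, to -0.49 under listed totals and to -0.16 with the length and GC trend removed. Over the 41 genes with 10 or more in all 6 libraries it was -0.26, and -0.08 with that trend removed. The cause of these moves was not tested beyond what the alternatives are built to change. Signs turned for Cdh2 (-0.05) and Vim (-0.08) under listed totals and for Fat1 (0.09) and Pcdh19 (0.07) with the trend removed. Of the 66 partner genes, 11 turned sign with the trend removed (8 of them called in the new direction) and 2, Vim and Ctnna1, under listed totals. Sirt6 lay between -2.31 and -2.06 without 1 library. Replicate numbers did not pair the libraries (correlations of deviations -0.019, 0.027 and -0.001), and fits with a replicate block gave 17 higher and 27 lower, the median was -0.38 and Sirt6 -2.21. Genes under about 100 normalised reads rest on few reads per library, which limits their folds.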
